A study of Mus musculus with 8 samples.

Results

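The genes described here carry glucose into the heart muscle cell, break it down to pyruvate and lactate, store it as glycogen and admit pyruvate to the mitochondrion. They were the rows of the deposited count table whose Entrez number maps to 36 listed mouse symbols, and all 36 were found among 23282 genes. The libraries came from hearts of male FVB/N mice 4 months of age. There were 4 wild-type libraries and 4 from mice null for AE3, the chloride/bicarbonate exchanger encoded by Slc4a3. The design text gives 4 animals for each genotype and the labels do not tie a library to an animal, so the p-values describe variation among these 8 libraries, called WT1 to WT4 (wild type) and KO1 to KO4 (AE3-null) in what follows, and values by library are in that order. The RNA came from bulk heart tissue, in which fewer cells of a type and less RNA per cell cannot be told apart.

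As background, glucose enters the heart muscle cell through the transporters GLUT1 and insulin-responsive GLUT4 and is trapped by hexokinase. Phosphofructokinase-1 is the main control point of glycolysis, and fructose 2,6-bisphosphate, made and removed by the Pfkfb enzymes, activates it. Pyruvate enters oxidation through the pyruvate dehydrogenase complex, which the Pdk kinases switch off. Most steps have several isozymes, and adult muscle uses its own set (Slc2a4, Hk2, Pfkm, Pgam2, Eno3, Pygm).

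Libraries held 9133628 to 27078351 counts. Expression is in CPM (counts scaled to library size with edgeR's TMM factors), and a log2 fold change above 0 is an increase in the AE3-null group. Slc4a3 itself lay at 378 to 389 CPM in wild-type and 31.5 to 34.6 CPM in AE3-null libraries, so each library matched its label. Cardiomyocyte markers were present in every library, with a summed level of 110359 to 118230 CPM in wild-type and 109575 to 117554 CPM in AE3-null libraries, and 2 of 10 (Tnnt2 and Pln) were called higher. The 36 glucose genes took 1.84% to 1.89% of the counts of a library. Of all 8 libraries WT3 lay farthest out on principal component 2.

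In AE3-null hearts most glucose genes had levels within a few percent of wild type, and 4 passed the test. Hk1 rose, and Pfkfb2, Pfkl and Pgam1 fell. Of the 35 genes that passed the filter on low counts, 1 was called higher and 3 lower at an edgeR adjusted p under 0.05, against 6.47% of all 14136 genes tested (3.16% higher and 3.31% lower). The median log2 fold change was -0.04 over the 35 genes and -0.00177 over all genes tested, and the median size was 0.06 against 0.09. The genotypes did not overlap in CPM for 7 of the 35 (Pfkl, Pfkfb2, Aldoa, Pgam1, Pgam2, Eno1 and Ugp2), all lower in AE3-null hearts, where 12.2% of all genes were separated, 6.1% as higher and 6.15% as lower. An unadjusted p under 0.05 was reached by 10 of the 35 against 21% of all genes. The genes were chosen with earlier results of these data known, so these counts describe the list and do not test it. With each library left out in turn the number called lay between 1 and 5. It was 1 without KO2, KO3 or KO4, 2 without WT4, 3 without WT1, WT2 or KO1, and 5 without WT3. With scaling by total counts only it was 1 higher and 1 lower. Pfkfb2 was called in each of these fits.

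**Figure D1:**
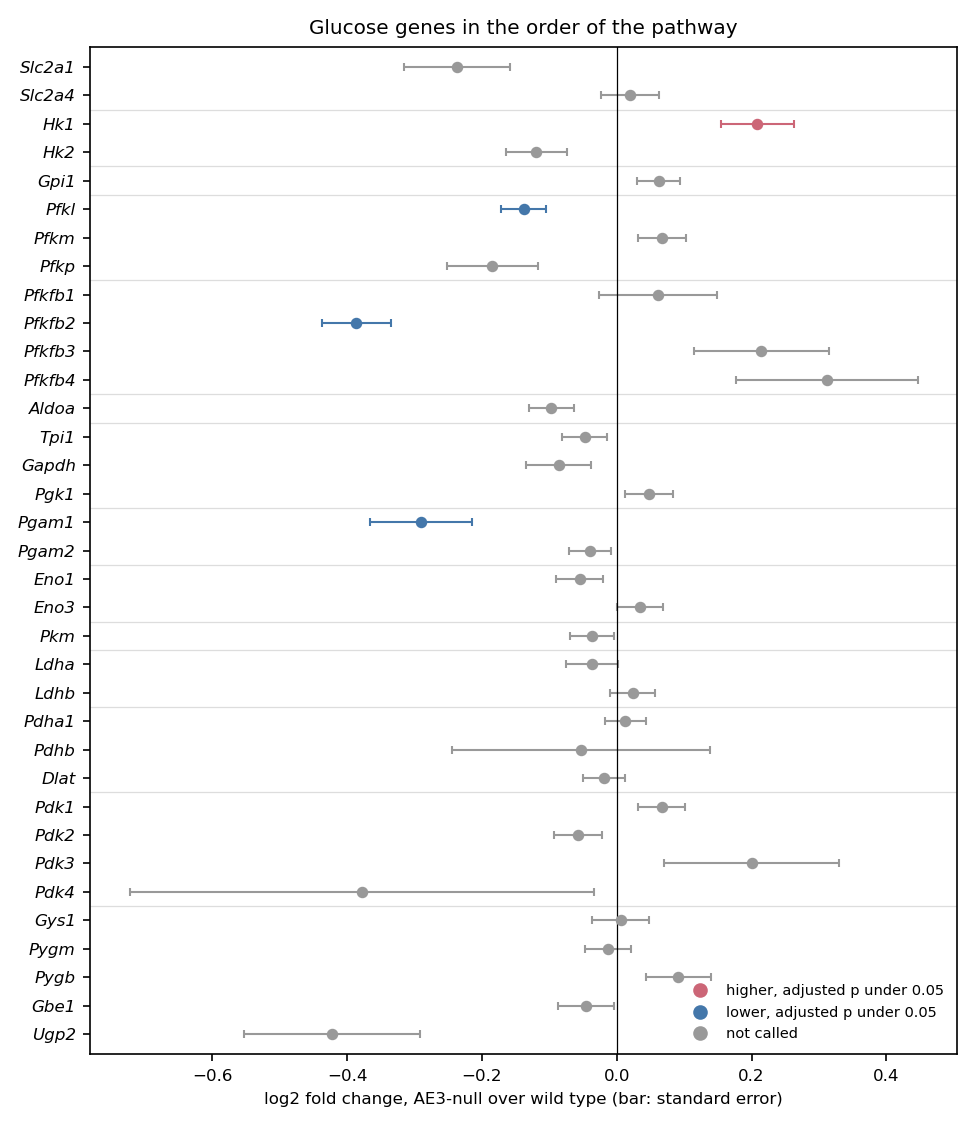
Log2 fold change of the 35 tested glucose genes (x axis, AE3-null over wild type, bars are standard errors) in pathway order from uptake at the top to glycogen at the bottom, coloured by call. Hk1 is the one coloured point to the right of 0, Pfkfb2, Pfkl and Pgam1 are to the left, and Pdk4 and Pdhb have the widest bars.

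Slc2a4 was the more abundant glucose transporter transcript per length in both genotypes. Slc2a4 (Entrez 20528), which encodes GLUT4, measured 428, 429, 444 and 435 CPM in WT1 to WT4 and 460.1, 412, 415 and 472 CPM in KO1 to KO4. The genotypes overlapped (log2 0.02, SE 0.0435, edgeR adjusted p 0.853), and the sign of this small difference turned without KO1 or KO4. Slc2a1 (Entrez 20525), the basal transporter GLUT1 that endothelial and other non-muscle cells also use, measured 20.5, 22.9, 23.2 and 23.6 CPM in wild-type and 21.6, 16.4, 17.9 and 19.7 CPM in AE3-null libraries. KO1 lay inside the wild-type range and the other AE3-null libraries lay below it. The difference did not pass the test (log2 -0.24, SE 0.0787, edgeR adjusted p 0.0847), and it did without KO1 (adjusted p 0.0440). Per kilobase of exon the wild-type level of Slc2a4 was 155 ± 2.63 CPM and that of Slc2a1 6.92 ± 0.440 CPM (SD, n = 4). Slc2a1 made up 4.28% ± 0.228 in wild type against 3.56% ± 0.240 in AE3-null hearts (SD, n = 4; exact permutation p 0.0286, adjusted p 0.0571) of this pair.

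The isozyme share just given is the per-length level of 1 isozyme over the sum for its step. It was computed for 10 steps, and p-values were adjusted over these 10. A comparison of 4 with 4 libraries cannot give an exact two-sided p below 0.0286. In 5 of the 10 (Slc2a1, Hk1, Pfkl, Pfkfb2 and Eno1) the genotypes did not overlap and the p was that smallest value. With 5 of 10 shares at this floor the adjusted p cannot lie below 0.0571. None could therefore reach an adjusted p under 0.05, and the lack of a pass does not show equal shares.

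Of the hexokinases, which phosphorylate glucose, Hk1 rose and Hk2 did not pass the test. Hk1 (Entrez 15275), the isozyme found in most tissues, measured 267, 313, 263 and 283 CPM in wild-type and 308, 311, 335 and 346 CPM in AE3-null libraries. WT2 was the one wild-type library within the AE3-null range. The rise was 15.5% (log2 0.21, SE 0.0544, edgeR adjusted p 0.0366). Leaving out 1 library raised the adjusted p of Hk1 over the threshold for WT1 (0.1005), WT3 (0.0533), WT4 (0.104), KO2 (0.0530), KO3 (0.105) or KO4 (0.115). Hk2 (Entrez 15277), the insulin-regulated muscle isozyme, measured 537, 556, 587 and 616 CPM in wild-type and 548, 492, 526 and 547 CPM in AE3-null libraries, with overlap (log2 -0.12, SE 0.0455, edgeR adjusted p 0.136). Per kilobase Hk2 stayed the more abundant, at 102 ± 6.12 against 58.0 ± 4.601 CPM in wild-type and 94.1 ± 4.71 against 67.0 ± 3.74 CPM in AE3-null hearts (SD, n = 4). The Hk1 share of the pair was 36.2% ± 2.35 in wild type against 41.6% ± 1.44 in AE3-null hearts (SD, n = 4; exact permutation p 0.0286, adjusted p 0.0571). The highest wild-type share (39.4%, WT2) and the lowest AE3-null share (39.4%, KO1) were almost equal.

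Markers of atrial muscle moved in the same direction as Hk1. All 5 markers on the list were called higher, and their summed level was 2827 to 3364 CPM in wild-type and 3774 to 4369.7 CPM in AE3-null libraries. No marker was without counts. The part of atrial tissue in the Hk1 result was not tested.

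The next steps differed in how many of their isozymes were called. Gpi1 (Entrez 14751), phosphoglucose isomerase, lay at 462 to 477 CPM in wild-type and 476 to 504 CPM in AE3-null libraries and was not called (log2 0.06, SE 0.0322, edgeR adjusted p 0.284). Among the phosphofructokinase-1 genes, Pfkm (Entrez 18642), the muscle subunit, measured 1201, 1156, 1264 and 1211 CPM in wild-type and 1296, 1223, 1235 and 1307 CPM in AE3-null libraries. It was not called (log2 0.07, SE 0.0357, edgeR adjusted p 0.303). Pfkl (Entrez 18641), the liver-type subunit, measured 209, 216, 213 and 205 CPM in wild-type and 193, 187, 191 and 194 CPM in AE3-null libraries. All AE3-null values were below all wild-type values, and each group was narrow (log2 -0.14, SE 0.0339, edgeR adjusted p 0.0216). Pfkl was no longer called on leaving out WT2 (0.0703), KO1 (0.0576), KO2 (0.0662), KO3 (0.0619) or KO4 (0.0558), or with scaling by total counts (adjusted p 0.0520). The platelet-type Pfkp (Entrez 56421) lay at 67.6 to 88.6 CPM in wild-type and 65.2 to 70.6 CPM in AE3-null libraries and was not called (log2 -0.18, SE 0.0678, edgeR adjusted p 0.131), except without WT3 (log2 -0.24, adjusted p 0.01003). Pfkm supplied most of the per-length level, 84.4% ± 0.943 in wild-type and 86.3% ± 0.307 in AE3-null hearts (SD, n = 4). The Pfkl share was 11.8% ± 0.457 in wild type against 10.5% ± 0.181 in AE3-null hearts (SD, n = 4; exact permutation p 0.0286, adjusted p 0.0571).

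Pfkfb2 had the largest change among the called glucose genes. Pfkfb2 (Entrez 18640) encodes the heart form of the enzyme that makes and removes fructose 2,6-bisphosphate. It measured 238, 217, 204 and 236 CPM in wild-type and 181, 173, 159 and 171 CPM in AE3-null libraries. The lowest wild-type library lay above the highest AE3-null library. Pfkfb2 fell by 23.5%, or -0.39 on the log2 scale (SE 0.0509, edgeR adjusted p 0.000438), and was called in all 18 alternatives, with log2 values from -0.42 to -0.35. Of the 50-base stretches of its transcripts, 25.0% also occur in transcripts of 2 other genes, so reads there cannot be assigned with certainty.

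The other Pfkfb genes were lower in level and none was called. Pfkfb1 (Entrez 18639), known from liver and skeletal muscle, measured 15.1, 13.4, 17.8 and 14.5 CPM in wild-type and 17.4, 14.5, 14.9 and 16.1 CPM in AE3-null libraries (log2 0.06, SE 0.0877, edgeR adjusted p 0.756). Pfkfb3 (Entrez 170768), the inducible isozyme with the strongest kinase bias, measured 20.9, 14.8, 15.7 and 15.4 CPM in wild-type and 20.7, 17.0, 19.8 and 19.2 CPM in AE3-null libraries (log2 0.21, SE 0.1003, edgeR adjusted p 0.239). WT1 was above every AE3-null library, and without it Pfkfb3 was called higher (log2 0.34, adjusted p 0.0220). Pfkfb4 (Entrez 270198), also inducible, lay at 3.28 to 4.70 CPM in wild-type and 4.53 to 5.26 CPM in AE3-null libraries (log2 0.31, SE 0.135, edgeR adjusted p 0.193). The Pfkfb2 share of the 4 genes was 79.3% ± 2.09 in wild type against 73.0% ± 1.30 in AE3-null hearts (SD, n = 4; exact permutation p 0.0286, adjusted p 0.0571). The shares of Pfkfb1 and Pfkfb3 went from 13.4% ± 2.04 to 16.5% ± 0.740 and from 5.37% ± 0.673 to 7.45% ± 0.597 (SD, n = 4). These shares were not tested, and shares within a step are not independent of each other.

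**Figure D2:**
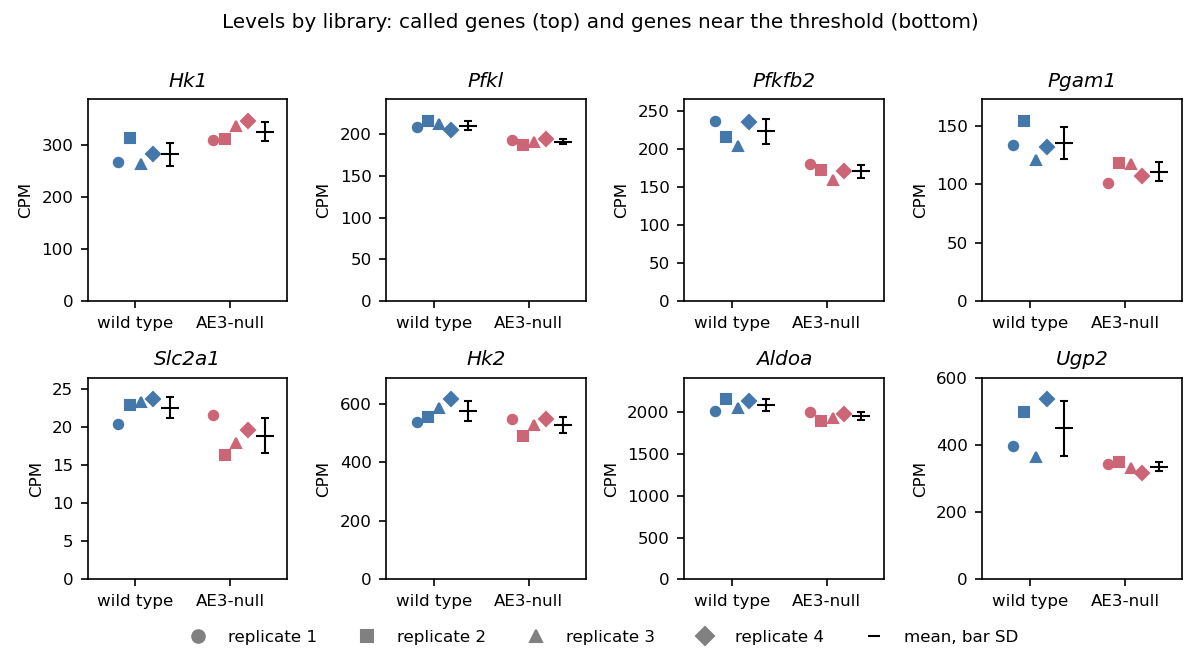
CPM (y axis, from 0) of the 4 called glucose genes (top row) and of 4 that did not pass the test (bottom row) in each library, by genotype, with marker shape for the replicate number and a bar for mean and SD. Pfkl, Pfkfb2, Pgam1, Aldoa and Ugp2 have no overlap between genotypes, and the wild-type values of Ugp2 are spread from 366 to 538 CPM.

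From aldolase to phosphoglycerate kinase no gene was called. Aldoa (Entrez 11674), the muscle aldolase, measured 2014, 2157, 2049 and 2140.1 CPM in wild-type and 2008, 1892, 1938 and 1979 CPM in AE3-null libraries. The genotypes did not overlap, with highest AE3-null and lowest wild-type values close together, and the fitted difference of -6.49% did not pass the test (log2 -0.10, SE 0.0333, edgeR adjusted p 0.0957). Aldoc (Entrez 11676), the brain-type aldolase, was left out by the filter, with 3 to 10 counts per library, and its share of aldolase was 0.0131% ± 0.00585 in wild type against 0.0149% ± 0.00738 in AE3-null hearts (SD, n = 4; exact permutation p 0.771, adjusted p 0.771). Tpi1 (Entrez 21991), triosephosphate isomerase, lay at 609.6 to 640.2 CPM in wild-type and 585 to 626 CPM in AE3-null libraries (log2 -0.05, SE 0.0335, edgeR adjusted p 0.452). Gapdh (Entrez 14433), which makes the first NADH of the pathway, lay at 90.9 to 97.3 CPM in wild-type and 79.6 to 93.1 CPM in AE3-null libraries (log2 -0.09, SE 0.0482, edgeR adjusted p 0.327). Pgk1 (Entrez 18655), phosphoglycerate kinase, lay at 366 to 379 CPM in wild-type and 363 to 401 CPM in AE3-null libraries (log2 0.05, SE 0.0361, edgeR adjusted p 0.488).

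The measured level of Gapdh was low for this pathway. Per kilobase it was 63.3 ± 1.90 CPM in wild-type hearts, against 357 ± 7.75 for Tpi1 and 815 ± 27.0 for Aldoa (SD, n = 4). Of the 50-base stretches of Gapdh transcripts, 58.4% also occur in transcripts of 222 other genes. The shares were 68.0% for Pgk1, 49.5% for Eno1 and 41.5% for Pgam1, but 0 for Pgam2 and Eno3. How reads matching several places were counted is not given in the sources used here. The levels and isozyme shares of Gapdh, Pgk1, Eno1 and Pgam1 are therefore uncertain, and the effect of shared sequence on them was not tested.

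Phosphoglycerate mutase was the one later step with a called gene. Pgam1 (Entrez 18648), the isozyme of brain and most non-muscle cells, measured 134, 155, 121 and 132 CPM in wild-type and 101, 118, 117 and 107 CPM in AE3-null libraries. The highest AE3-null library (KO2) lay just under the lowest wild-type library (WT3). Pgam1 fell by 0.29 on the log2 scale (SE 0.0753), with an edgeR adjusted p of 0.0493, close to the threshold. The call was lost in 10 of 18 alternatives. These were RLE size factors, total counts, no filter and leaving out the 10 most abundant genes (adjusted p 0.0525, 0.0656, 0.0686 and 0.0503), and leaving out WT1 (0.104), WT4 (0.119), KO1 (0.0994), KO2 (0.0632), KO3 (0.0655) or KO4 (0.143). Pgam2 (Entrez 56012), the muscle isozyme, measured 578, 579, 579 and 569 CPM in wild-type and 566, 542, 565 and 566 CPM in AE3-null libraries. All AE3-null values were lower, with a fitted difference of -2.75%, and the test was not passed (log2 -0.04, SE 0.0311, edgeR adjusted p 0.501). Pgam1 made up 10% ± 0.911 in wild type against 8.57% ± 0.697 in AE3-null hearts (SD, n = 4; exact permutation p 0.0571, adjusted p 0.0816).

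Enolase, pyruvate kinase and lactate dehydrogenase genes were not called. Eno3 (Entrez 13808), the muscle enolase, measured 1381, 1317, 1419 and 1418 CPM in wild-type and 1413, 1399, 1387 and 1470 CPM in AE3-null libraries (log2 0.03, SE 0.0339, edgeR adjusted p 0.613). Eno1 (Entrez 13806), the enolase of most tissues, measured 106, 106, 106 and 108 CPM in wild-type and 104, 99.97, 103 and 104 CPM in AE3-null libraries. Its values were separated, with a fitted difference of -3.72% (log2 -0.05, SE 0.0349, edgeR adjusted p 0.4). Eno1 made up 4.53% ± 0.143 in wild type against 4.26% ± 0.0935 in AE3-null hearts (SD, n = 4; exact permutation p 0.0286, adjusted p 0.0571). Pkm (Entrez 18746), pyruvate kinase, lay at 1283 to 1371 CPM in wild-type and 1256 to 1317 CPM in AE3-null libraries (log2 -0.04, SE 0.0327, edgeR adjusted p 0.577), and counts per gene cannot tell its splice forms apart. Ldhb (Entrez 16832), the heart-type lactate dehydrogenase, measured 1181, 1272, 1199.7 and 1235 CPM in wild-type and 1270.3, 1220.3, 1214 and 1263 CPM in AE3-null libraries (log2 0.02, SE 0.0333, edgeR adjusted p 0.751). Ldha (Entrez 16828), the muscle-type subunit, measured 600.04, 606, 655 and 585 CPM in wild-type and 616, 588, 576 and 604 CPM in AE3-null libraries (log2 -0.04, SE 0.0385, edgeR adjusted p 0.646), and without WT3 its log2 fold change turned to 0.000226. The Ldha share of the pair was 25.6% ± 1.27 in wild type against 24.8% ± 0.180 in AE3-null hearts (SD, n = 4; exact permutation p 0.4, adjusted p 0.444). WT3 had the highest Ldha level and share of the 8 libraries.

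**Figure D3:**
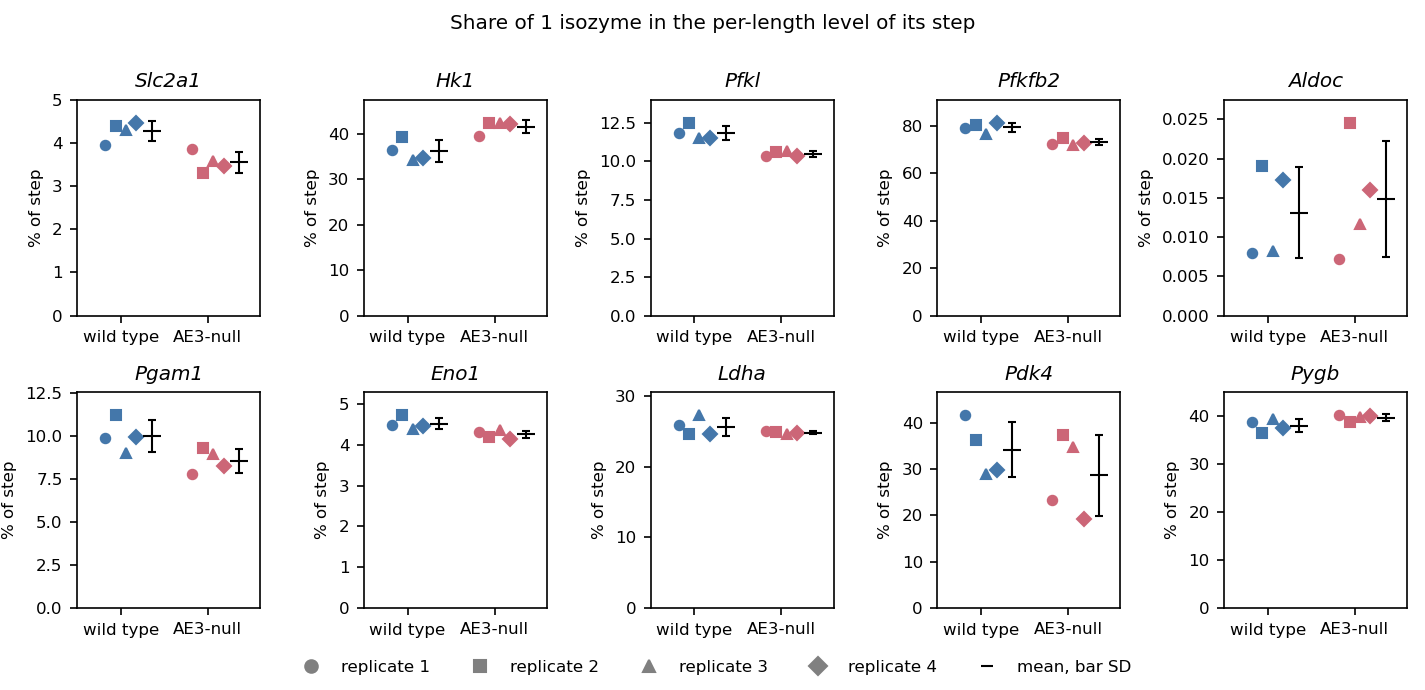
Share of the named isozyme in the summed CPM per kilobase of exon of its step (y axis, percent, from 0) in each library, by genotype, with mean and SD. Hk1 is higher and Slc2a1, Pfkl, Pfkfb2 and Eno1 are lower in every AE3-null library than in any wild-type library, while Aldoc, Pgam1, Ldha, Pdk4 and Pygb overlap.

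The start sites of the fallen genes Pfkfb2 and Pgam1 are shown because each has a window with the letters ACGTG, the core bound by the hypoxia-inducible factors among others. Windows were the 250 bases before each RefSeq start in GRCm38.p6, printed 5′ to 3′ on the gene's strand, with ACGTG or its reverse complement in capitals. Pfkfb2 has 3 windows, of which 2 hold ACGTG, and the printed one, with CACGTG, lies at chr1:130715822-130716071 on the minus strand, where the capitals form this palindrome, an E-box. The Pgam1 window lies at chr19:41911621-41911870 on the plus strand.
Pfkfb2: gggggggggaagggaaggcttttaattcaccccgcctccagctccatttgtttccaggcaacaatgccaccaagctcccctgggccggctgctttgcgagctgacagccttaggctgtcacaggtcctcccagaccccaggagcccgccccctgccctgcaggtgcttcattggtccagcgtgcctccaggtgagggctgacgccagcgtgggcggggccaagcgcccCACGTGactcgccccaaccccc
Pgam1: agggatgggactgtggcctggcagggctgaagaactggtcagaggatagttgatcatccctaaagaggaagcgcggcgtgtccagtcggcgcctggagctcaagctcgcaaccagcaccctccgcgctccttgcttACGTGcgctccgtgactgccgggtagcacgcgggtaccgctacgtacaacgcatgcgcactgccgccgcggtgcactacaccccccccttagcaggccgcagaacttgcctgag
Searched on both strands, ACGTG was in 20 of 55 windows of the 35 glucose genes with an entry (36.4%) and in 16.6% of all 32851 windows. CACGTG, each copy of which holds ACGTG on both strands, was in 5 of 55 (9.09%) and in 6.02% of all. Windows of the same gene can overlap and hold the same copy, as windows of Aldoa do, so windows are not separate units. By gene, ACGTG was in at least 1 window of 16 of the 35, and the share by gene over all genes was not computed. The windows of the glucose genes also held more CG pairs, with a median of 13 against 6, and the part of base composition in these shares was not tested. The 2 windows of Hk1 and the window of Pfkl do not hold ACGTG. A match describes letters and does not show that a factor binds there.

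Subunits of the pyruvate dehydrogenase complex were not called. Pdha1 (Entrez 18597), the E1 alpha subunit, lay at 1316 to 1357 CPM in wild-type and 1296 to 1371 CPM in AE3-null libraries (log2 0.01, SE 0.0308, edgeR adjusted p 0.866), and Dlat (Entrez 235339), the E2 subunit, at 474 to 495 CPM in wild-type and 469 to 488 CPM in AE3-null libraries (log2 -0.02, SE 0.0317, edgeR adjusted p 0.794). Pdhb (Entrez 68263), the E1 beta subunit, measured 392, 374, 288 and 375 CPM in wild-type and 412, 286, 266 and 411 CPM in AE3-null libraries. Its values fell into a high set of 5 libraries and a low set of 3 (WT3 and KO2 and KO3) with none between, and both sets held both genotypes. The log2 fold change was -0.05 (SE 0.191), and it turned to 0.02 and 0.05 without KO2 or KO3. Pdha1, its partner in the E1 enzyme, showed no such sets. The 50-base stretches that Pdhb shares with the transcripts of 1 other gene were 30.3% of its total.

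Of the kinases that switch the complex off, Pdk4 varied most. Pdk4 (Entrez 27273), the isozyme induced by fasting and fatty acids, measured 711, 556, 407 and 434 CPM in wild-type and 301, 574, 515 and 242 CPM in AE3-null libraries. KO1 and KO4 were below all wild-type libraries, whereas KO2 and KO3 were within the wild-type range. The coefficient of variation of Pdk4 was 26.3% over wild-type hearts and 39.6% over AE3-null hearts, and the test was not passed (log2 -0.38, SE 0.345, edgeR adjusted p 0.607). Its log2 fold change lay between -0.58 and -0.19 over the 18 alternatives. Pdk2 (Entrez 18604), the other main kinase of heart, measured 486, 476, 482 and 501 CPM in wild-type and 473, 446, 457 and 492 CPM in AE3-null libraries (log2 -0.06, SE 0.0362, edgeR adjusted p 0.392), and Pdk1 (Entrez 228026) at 351 to 367 CPM in wild-type and 363 to 390.4 CPM in AE3-null libraries (log2 0.07, SE 0.0347, edgeR adjusted p 0.284). Pdk3 (Entrez 236900) was at only 2.90 to 3.82 CPM in wild-type and 3.76 to 4.09 CPM in AE3-null libraries (log2 0.20, SE 0.130, edgeR adjusted p 0.411). Pdk2 supplied the most per-length level of the 4 in wild-type hearts, 216 ± 4.79 CPM per kilobase, followed by Pdk4 at 151 ± 39.8 and Pdk1 at 68.6 ± 1.39 (SD, n = 4). Pdk4 made up 34.2% ± 5.95 in wild type against 28.7% ± 8.80 in AE3-null hearts (SD, n = 4; exact permutation p 0.371, adjusted p 0.444).

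**Figure D4:**
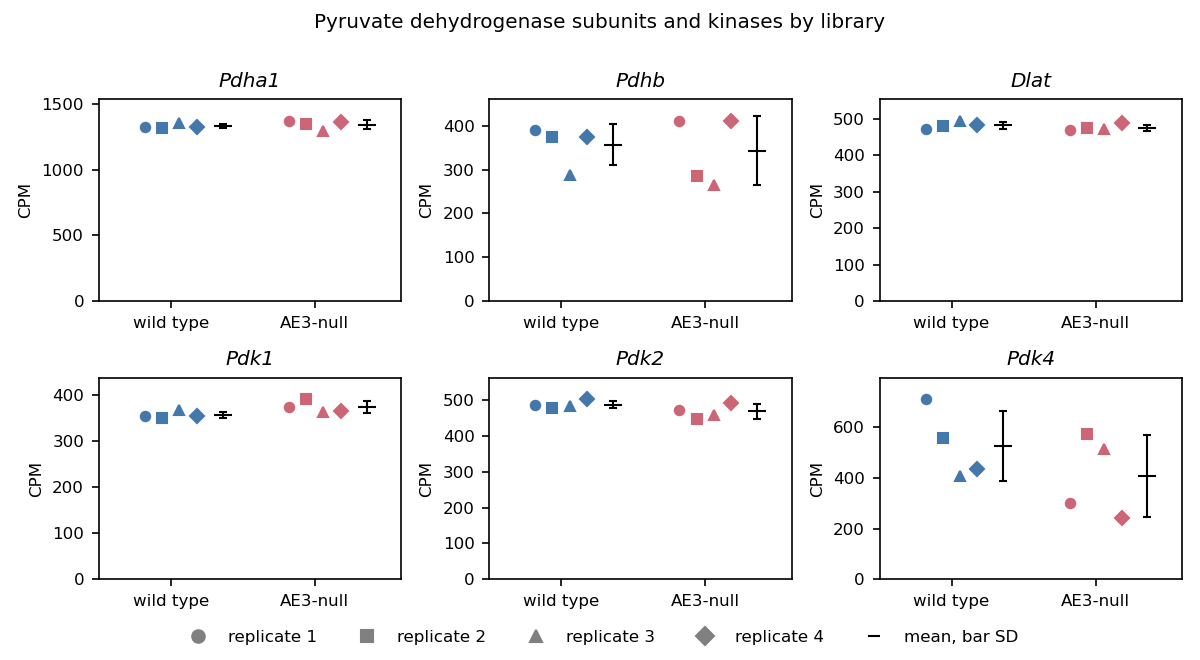
CPM (y axis, from 0) of pyruvate dehydrogenase subunit and kinase genes in each library, by genotype, with marker shape for the replicate number and a bar for mean and SD. Pdha1, Dlat, Pdk1 and Pdk2 vary little, Pdhb splits into 5 high and 3 low libraries, and Pdk4 ranges from 242 to 711 CPM.

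Glycogen genes were not called. Ugp2 (Entrez 216558), which makes the UDP-glucose from which glycogen is built, measured 398, 500.5, 366 and 538 CPM in wild-type and 344, 350.3, 334 and 318 CPM in AE3-null libraries. Every AE3-null library was below every wild-type library, and WT2 and WT4 were far above WT1 and WT3. The difference had the largest size of the 35 genes but did not pass the main test (log2 -0.42, SE 0.131, edgeR adjusted p 0.126). It passed with DESeq2 (adjusted p 0.0300), limma voom (0.0286), edgeR without robust moderation (0.0263) and without WT3 (edgeR, log2 -0.51, 0.0329). Gys1 (Entrez 14936), muscle glycogen synthase, lay at 162 to 172 CPM in wild-type and 155 to 174 CPM in AE3-null libraries (log2 0.01, SE 0.0417, edgeR adjusted p 0.962), and Gbe1 (Entrez 74185), the branching enzyme, at 69.7 to 75.3 CPM in wild-type and 69.4 to 72.4 CPM in AE3-null libraries (log2 -0.05, SE 0.0416, edgeR adjusted p 0.575). Of the phosphorylases, which release glucose from glycogen, Pygm (Entrez 19309), the muscle isozyme, measured 1385, 1400, 1404 and 1431 CPM in wild-type and 1439.7, 1329, 1354 and 1447 CPM in AE3-null libraries (log2 -0.01, SE 0.0344, edgeR adjusted p 0.883). Pygb (Entrez 110078), the brain isozyme that heart also expresses, measured 1195, 1096, 1244 and 1169 CPM in wild-type and 1319, 1149.9, 1219 and 1323 CPM in AE3-null libraries (log2 0.09, SE 0.0486, edgeR adjusted p 0.305). Pygb made up 38.1% ± 1.31 in wild type against 39.8% ± 0.636 in AE3-null hearts (SD, n = 4; exact permutation p 0.0571, adjusted p 0.0816). Per kilobase the pair measured 489 ± 6.68 CPM for Pygm and 301 ± 15.8 CPM for Pygb in wild-type hearts (SD, n = 4).

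Endothelial markers moved in the same direction as the fallen isozymes Pfkl and Pgam1. Of 8 markers 3 were called lower and none higher, and their summed level was 1239 to 1354 CPM in wild-type and 1064 to 1163 CPM in AE3-null libraries. Of 7 red blood cell markers 1 was called lower, with a summed level of 4546 to 7264 CPM in wild-type and 3157 to 4382 CPM in AE3-null libraries. Of 10 skeletal muscle markers 7 were tested and 1 (Myl1) was called lower, with a summed level of 2394 to 2572 CPM in wild-type and 2181 to 2341 CPM in AE3-null libraries. Most of this sum was Ckm, with means of 2188 CPM in wild-type and 2041 CPM in AE3-null libraries (edgeR adjusted p 0.0833). Myl1 fell from a mean of 75.4 to 16.3 CPM. Myh1, Myh2, Myh4, Actn3 and Tnni2 were not called (log2 0.01, 0.09, -0.01, -0.08 and 0.13), so the sum does not describe the markers alike. The untested Tnnt3, Tnnc2 and Mylpf had means of 0.46, 0.14 and 0.44 CPM in wild-type and 0.37, 0.19 and 0.43 CPM in AE3-null libraries. Tnni2 had means of 0.61 and 0.65 CPM, whereas Myh1 had 139 and 140 CPM, in the same order. Fibroblast markers had 1 lower call of 7, smooth muscle and pericyte markers 1 higher of 6, Schwann and neuronal markers 1 higher of 4 tested (summed level 12.8 to 15.1 CPM in wild-type and 17.3 to 19.6 CPM in AE3-null libraries), and macrophage and adipocyte markers none. Heat shock and immediate early genes had no call among 10 and a summed level of 322 to 939 CPM in wild-type and 339 to 491 CPM in AE3-null libraries. No marker was at 0 in all libraries. The part of these cell types and of this response in the glucose results was not tested.

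A wider list of 79 glucose pathway genes, other than the 36, was examined beside them. Of the 75 tested, 5 were called higher and 5 lower, 13.3% against 6.47% of all genes, and 15 (20%) did not overlap between genotypes against 12.2%. This list and its groups were chosen with earlier results of these data known. The shares and the calls by group therefore describe the list and do not show an excess in glucose genes. None of 20 glycogen genes, 10 pentose phosphate and hexosamine genes and 4 further glucose transporters was called by edgeR. At an unadjusted p under 0.05 in edgeR these groups had 4 of 20, 1 of 10 and 1 of 4 genes, against 21% of all genes tested.

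Regulators of glucose use held 6 of the 10 calls, 4 higher and 2 lower of 17. Mlxipl (Entrez 58805), which encodes the glucose-sensing transcription factor ChREBP, measured 46.3, 51.2, 45.5 and 51.7 CPM in wild-type and 37.7, 35.3, 41.2 and 36.6 CPM in AE3-null libraries, without overlap. It fell by 0.37 on the log2 scale (SE 0.0592, edgeR adjusted p 0.00163). Prkag2 (Entrez 108099), a gamma subunit of the energy sensor AMPK, measured 31.6, 30.8, 33.1 and 28.5 CPM in wild-type and 39.9, 35.1, 41.0 and 45.1 CPM in AE3-null libraries, and each AE3-null library was above all wild-type libraries (log2 0.39, SE 0.0693, edgeR adjusted p 0.00332). Hif1a (Entrez 15251), the oxygen-regulated subunit of a transcription factor that drives glycolytic genes, measured 65.2, 60.8, 71.6 and 67.7 CPM in wild-type and 76.1, 81.4, 80.8 and 84.5 CPM in AE3-null libraries, also separated (log2 0.28, SE 0.0514, edgeR adjusted p 0.00369). These 3 calls held in all 18 alternatives.

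The remaining called regulators, Tbc1d1, Irs1 and Mef2a, fell outside the rule that named up to 3 genes a group by smallest p and were added after their values were seen. Tbc1d1 (Entrez 57915), which restrains GLUT4 traffic, rose from 39.8 ± 2.15 to 46.7 ± 2.42 CPM, means ± SD over 4 libraries each (log2 0.23, SE 0.0545, edgeR adjusted p 0.0186), a call lost on leaving out WT1 (0.0648), WT4 (0.0570) or KO4 (0.0822). Irs1 (Entrez 16367), a docking protein of the insulin receptor, fell from 83.6 ± 9.44 to 68.7 ± 1.68 CPM, means ± SD over 4 libraries each (log2 -0.29, SE 0.0659, edgeR adjusted p 0.0208), a call lost on leaving out WT4 (0.0777), KO1 (0.0650), KO3 (0.0675) or KO4 (0.0697). Mef2a (Entrez 17258), a muscle transcription factor, rose from 108 ± 4.27 to 119 ± 3.72 CPM, means ± SD over 4 libraries each (log2 0.14, SE 0.0398, edgeR adjusted p 0.0464). The Mef2a call was lost in 10 of 18 alternatives, without WT1 (0.0552), WT2 (0.128), WT4 (0.140), KO1 (0.136), KO2 (0.0547), KO3 (0.0668) or KO4 (0.132), with limma voom (0.0519), without robust moderation (0.0594) and with the replicate block (0.0546).

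Carriers and side branches of pyruvate and lactate gave the other 4 calls. Bsg (Entrez 12215), the chaperone of the monocarboxylate carriers, measured 1089, 1196, 1150.5 and 1134 CPM in wild-type and 1046, 988, 1019 and 1059 CPM in AE3-null libraries. It fell by 0.15 on the log2 scale without overlap (SE 0.0357, edgeR adjusted p 0.0181), a call lost on leaving out WT2 (0.0639), WT4 (0.0520), KO2 (0.0700) or KO3 (0.0609). Slc16a7 (Entrez 20503), the high-affinity pyruvate carrier MCT2, rose from 7.28 ± 0.908 to 9.53 ± 0.589 CPM, means ± SD over 4 libraries each (log2 0.39, SE 0.1002, edgeR adjusted p 0.0264), a call lost on leaving out WT4 (0.0936), KO2 (0.0538) or KO4 (0.114). Pcx (Entrez 18563), pyruvate carboxylase, measured 50.2, 46.4, 48.7 and 50.8 CPM in wild-type and 41.6, 39.2, 41.4 and 44.1 CPM in AE3-null libraries. Its values did not overlap and the call held in all 18 alternatives (log2 -0.23, SE 0.0506, edgeR adjusted p 0.0113). Ldhd (Entrez 52815), the mitochondrial D-lactate dehydrogenase, fell from 48.5 ± 1.39 to 40.6 ± 3.95 CPM, means ± SD over 4 libraries each (log2 -0.25, SE 0.0611, edgeR adjusted p 0.0224), a call lost on leaving out WT4 (0.0851), KO1 (0.0869) or KO2 (0.0662). The main lactate carrier of muscle, Slc16a1, was not called (log2 -0.02, SE 0.0405, edgeR adjusted p 0.844), nor were the mitochondrial pyruvate carrier genes Mpc1 and Mpc2 (log2 -0.04 and -0.02).

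**Figure D5:**
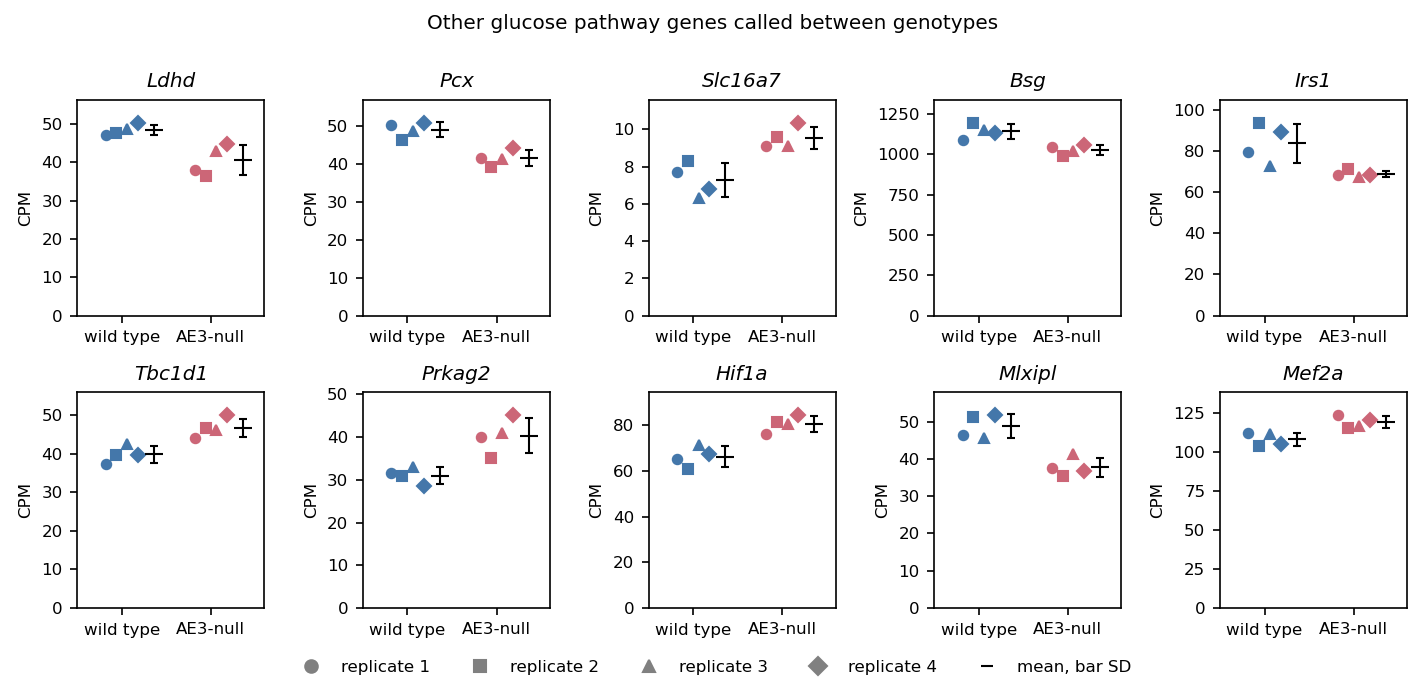
CPM (y axis, from 0) in each library of the 10 called genes of the wider glucose list, by genotype, with marker shape for the replicate number and a bar for mean and SD. Slc16a7, Tbc1d1, Prkag2, Hif1a and Mef2a are higher and Ldhd, Pcx, Bsg, Irs1 and Mlxipl are lower in each AE3-null library than in any wild-type library.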

How the data were processed

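RNA-seq read counts per gene were used as deposited by the authors and were not normalized. The submitters' processing notes name bcl2fastq, CASAVA 1.8, TopHat, DESeq and the mm9 build. The counting program, annotation, strand setting and treatment of multiply matching reads were not given in the sources used here. Entrez numbers were paired with symbols from a RefSeq table of GRCm38.p6 (23185 of 23282 matched). Genes were kept by filterByExpr (minimum count 10), scaled by TMM and tested by the robust quasi-likelihood F test of edgeR 4.0.16 in R 4.3.3, over all 8 libraries without covariates. Benjamini-Hochberg adjustment ran over 14136 genes, and an adjusted p under 0.05 is a call. SEs were derived from each log2 fold change and F value. Exonic lengths and shared 50-base stretches came from GENCODE M21, which may differ from the authors' annotation. Window sequences are from RefSeq, with 35 of 36 symbols matched. Isozyme shares were compared by exact permutation. The fit was tested on simulated data. Alternatives used RLE or total-count scaling, no filter or at least 1 CPM in 4 libraries, DESeq2 1.42.0, limma 3.58.1 voom, no robust moderation, an adjusted p under 0.1, the replicate block, the 10 most abundant genes left out, and each library left out. All 36 genes are accounted for. Called ones, the leading isozymes and their partners get values by library. Of the wider list, the rule named the called genes, up to 3 a group by smallest p, and 3 further called regulators were added to it. The members and lists were chosen with earlier results of these data known. Within each genotype, counts of any 2 libraries differed beyond sampling noise (chi-square per gene 2.59 at the least), and all were kept.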

Additional observations from a re-analysis of the deposited data

Results flagged for a closer look

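In 90 groups of 4 libraries (35 genes and 10 isozyme shares in each genotype) 5 had a library far from the other 3, where chance gives about 1 in 20. Pfkfb3 was 20.9 CPM in WT1 and 14.8 to 15.7 CPM in the other wild-type libraries. Pgam2 was low in WT4, at 569 against 578 to 579 CPM, and in KO2, the library of fewest counts, at 542 against 565 to 566 CPM. Pdhb was 288 CPM in WT3 and 374 to 392 CPM in the others. The Hk1 share of the hexokinase pair was 39.4% in KO1 and 42.2% to 42.4% in the other AE3-null libraries.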

How the results depend on the processing

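Over all genes 915 were called, 447 higher and 468 lower, and 4 glucose genes, 1 higher and 3 lower. With an adjusted p under 0.1 there were 1546 (731 higher and 815 lower), with 6 glucose genes, 5 of them lower. Total-count scaling gave 889 calls, 528 higher and 361 lower, and 2 glucose genes, 1 of them lower. Leaving out single libraries gave 407 to 1727 calls over all genes (214 to 821 higher and 193 to 906 lower) and 1 to 5 among glucose genes (0 to 1 higher and 1 to 5 lower). Hk1 kept its direction in all 18 alternatives, as did Pfkfb2, Pfkl and Pgam1. The alternative with an adjusted p under 0.1 reuses the main fit, so it could not lose a call or turn a direction. Among the glucose genes signs turned only for uncalled ones near 0: with total counts Dlat was 0.00115 and Pygm 0.00749. Without single libraries, Gys1 ranged from -0.0160 to 0.0380, Pygm from -0.0315 to 0.0112, Slc2a4 from -0.0166 to 0.0511, Ldha from -0.0557 to 0.000226 and Pdhb from -0.151 to 0.0546. Shares of counts without length correction kept the direction of all 10 isozyme differences. None was called, in a permutation test with the same smallest p of 0.0286. The replicate block gave 1002 calls over all genes, 485 higher and 517 lower, and the same number of 4 glucose genes. Deviations of same-numbered libraries over all genes had correlations of -0.0397 to 0.162, the highest for WT1 with KO1. Other pairs lay between -0.155 and 0.0844. A pairing that acts on few genes was not tested, and the main fit used none. At 4 libraries a genotype, differences of the size seen for most of these genes are near the spread between libraries, and an uncalled gene is not shown to be equal.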

Other observations

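Further genes of the wider glucose list, named here after their values were seen, were not called. Hk3, the hexokinase of leukocytes, lay at 3.68 to 5.44 CPM in wild-type and 3.99 to 4.59 CPM in AE3-null libraries. Fbp2, the muscle form of fructose-1,6-bisphosphatase, lay at 10.2 to 14.2 CPM in wild-type and 12.5 to 16.9 CPM in AE3-null libraries (log2 0.33, SE 0.115, edgeR adjusted p 0.113), and Gpd1, cytosolic glycerol-3-phosphate dehydrogenase, at 60.4 to 80.8 CPM in wild-type and 77.7 to 116 CPM in AE3-null libraries (log2 0.40, SE 0.161, edgeR adjusted p 0.222). Gaa (Entrez 14387), the acid glucosidase that breaks down glycogen in lysosomes, measured 191, 228, 180.4 and 217 CPM in wild-type and 162, 168, 176 and 177 CPM in AE3-null libraries, lower without overlap and close to the threshold (log2 -0.26, SE 0.0692, edgeR adjusted p 0.0556).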
